A study of Bos taurus with 30 samples.

Results

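Stromal cells of the bovine endometrium, the connective tissue cells that lie beneath the uterine lining, were compared after culture with 1 ng/mL insulin or with the vehicle control. The comparison was formed by the 3 libraries of stromal cells at 1 ng/mL and the 3 libraries of stromal cells with vehicle, which are 6 of the 30 samples of the series. They were chosen by cell type and dose and paired by the replicate number in the labels. Primary cells came from uteri of non-pregnant cows in the early luteal phase, between Days 4 and 7. The stromal cells were grown in the lower chamber of a microfluidic device and epithelial cells in the upper chamber, with a porous membrane between them. All 6 libraries were made after 72 hours of flow at 1 µL per minute with 5 mM glucose in the medium, and the vehicle was acetic acid in phosphate-buffered saline. The labels do not name the cow behind a replicate, so the p-values measure the spread between these samples. The model also has the limits of primary cells, since a lower chamber can hold epithelial cells as well.

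Insulin binds the insulin receptor (INSR) and, more weakly, the receptor of insulin-like growth factor 1 (IGF1R). The active receptor recruits the insulin receptor substrates, and the kinase AKT then moves FOXO transcription factors out of the nucleus and raises the processing of SREBP factors, which drive sterol and fatty acid synthesis. A second branch runs through the RAF, MEK and ERK kinases. In the endometrium, stromal cells make collagens and other matrix, carry the progesterone receptor (PGR) and signal to the epithelium.

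The libraries held 9229446 to 12391819 counted reads, and levels are given as counts scaled to the library total (CPM). The limit that a count of 0 allows was 0.242 to 0.325 CPM, which covers counting error alone. All differences are log2 fold changes with their standard errors (SE), and a positive sign means a higher level at 1 ng/mL. The mesenchymal marker vimentin (VIM) had 3789 to 4449 CPM in the 6 libraries. Of 28 epithelial marker genes, however, the vehicle library of replicate 2 had reads on every one. Their median level was 4.11% of that in vehicle-treated epithelial cells in this library and 0.11%, 0.0615%, 0.101%, 0.015% and 0.122% in vehicle replicates 1 and 3 and in replicates 1, 2 and 3 at 1 ng/mL, respectively. Results that rest on this library are therefore given with and without replicate 2.

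**Figure D1:**
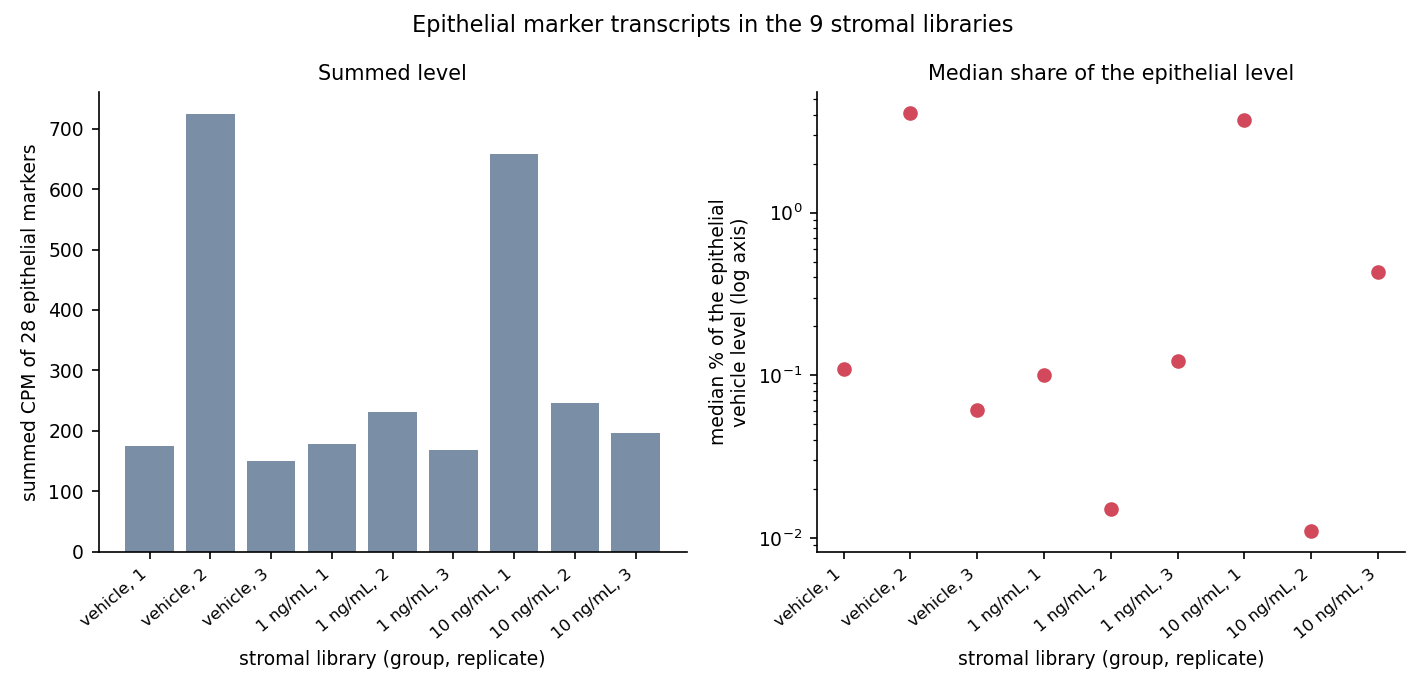
Epithelial marker transcripts in the 9 stromal libraries of the insulin experiment, as summed CPM over 28 genes (bars, left) and as the median percentage of the level in vehicle-treated epithelial cells (points, right, log axis). The vehicle library of replicate 2 (725 CPM, 4.11%) and the 10 ng/mL library of replicate 1 (658 CPM, 3.74%) stand above the others.

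Keratin 18 (KRT18, ENSBTAG00000001517), a filament protein of simple epithelia, was at 0.787, 34.4 and 0 CPM in vehicle replicates 1, 2 and 3 and at 0.556, 0.254 and 0.242 CPM with insulin. Keratin 19 (KRT19) was at 3.67, 65.5 and 2.17 CPM with vehicle and at 2.69, 0.339 and 2.02 CPM with insulin. The vehicle library of replicate 2 was thus the highest of the 6 for both keratins, and the other 5 libraries were at or under 3.67 CPM. Over the 28 markers the summed level was 151 to 178 CPM in those libraries other than replicate 2, 725 CPM in the vehicle library of replicate 2 and 230 CPM in its insulin partner. Between 110 and 217 CPM of each sum came from the junction gene JUP, which stromal cells also expressed. Markers of other cells did not set this library apart. Among 11 endothelial markers only FLT1 had a high level (196 to 452 CPM), and CLDN5, ESAM and TIE1 were at or under 0.108 CPM. The 9 leukocyte markers summed to 9.05 to 14.3 CPM.

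Across the transcriptome, 12711 genes were tested, of which 12228 were protein-coding. Of these, 0 protein-coding genes (0.0%) were called at an adjusted p under 0.05 and a log2 fold change beyond 0.1 (quasi-likelihood test of edgeR, adjusted by the Benjamini-Hochberg method), where the smallest adjusted p of a protein-coding gene was 0.331. At an unadjusted p under 0.05 there were 656 genes of all types (5.16%) and 615 protein-coding genes (5.03% of those tested), of which 257 (2.1%) were higher and 358 (2.93%) lower with insulin. These totals are near the share that a threshold of 0.05 passes when no gene differs. DESeq2 called 0 protein-coding genes as well, with 72 at an unadjusted p under 0.05. Over all types 2 genes were called (0.0157%), both of them small structural RNAs, and DESeq2 called the same 2. Some of the single-gene comparisons that follow are given with their adjusted p and others with the log2 fold change alone. Apart from the 2 called genes, a gene described as higher or lower did not pass the adjustment in the fit of the 3 pairs.

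Both called genes encode RNAs that carry no protein code, and they were singled out after their values were seen. The first (ENSBTAG00000046888) is annotated as a copy of the 7SL RNA family, the RNA of the signal recognition particle that brings nascent secreted proteins to the endoplasmic reticulum. It was at 43.8, 56.1 and 60.9 CPM in vehicle replicates 1, 2 and 3 and at 59.8, 87.0 and 87.4 CPM with insulin. The level was higher in each pair, as for 8.5% of all genes tested, although the lowest insulin library lay between the vehicle libraries of replicates 2 and 3. The log2 fold change was 0.56 (SE 0.061, adjusted p = 0.00702), and it was 0.52 to 0.59 with 1 replicate left out at a time. The family has 14 tested copies, of which 4 were higher and 1 lower at an unadjusted p under 0.05 with a median of 0.08 on the log2 scale. Summed over the family, the level was 8200, 5481 and 7839 CPM with vehicle and 8249, 6663 and 6377 CPM with insulin. The summed level was therefore higher in pairs 1 and 2 and lower in pair 3, unlike the called copy. Copies of this family are near-identical and only uniquely mapped reads were kept. Reads that fit several copies are therefore missing from the levels of the called copy and of the family.

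The second called gene (ENSBTAG00000043086) is annotated as a Y RNA, one of the small cytoplasmic RNAs that bind the Ro60 protein. It was at 5.77, 3.53 and 6.28 CPM with vehicle and at 11.0, 11.9 and 13.1 CPM with insulin in replicates 1, 2 and 3. All 3 insulin libraries lay above all 3 vehicle libraries, which was so for 1.28% of all genes tested. The gene rose by a log2 fold change of 1.25 (SE 0.164, adjusted p = 0.0293) and by 1.03 to 1.39 with 1 replicate left out. The other tested Y RNA genes had 0.88 and 0.17, and the summed level of the family was 13.3, 6.52 and 15.5 CPM with vehicle and 18.5, 21.3 and 21.5 CPM with insulin. At 10 ng/mL the sum was 15.1, 7.72 and 5.86 CPM, so that the higher dose did not have the level of the lower one. Against vehicle, 10 ng/mL had a log2 fold change of -0.07 (SE 0.284) for the Y RNA gene and 0.02 (SE 0.117) for the 7SL copy, and both comparisons share the vehicle libraries with that of 1 ng/mL. Without the replicate block neither gene was called, with an adjusted p of 1.00 for both. A fit over all 9 stromal libraries gave an adjusted p of 0.965 for both.

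**Figure D2:**
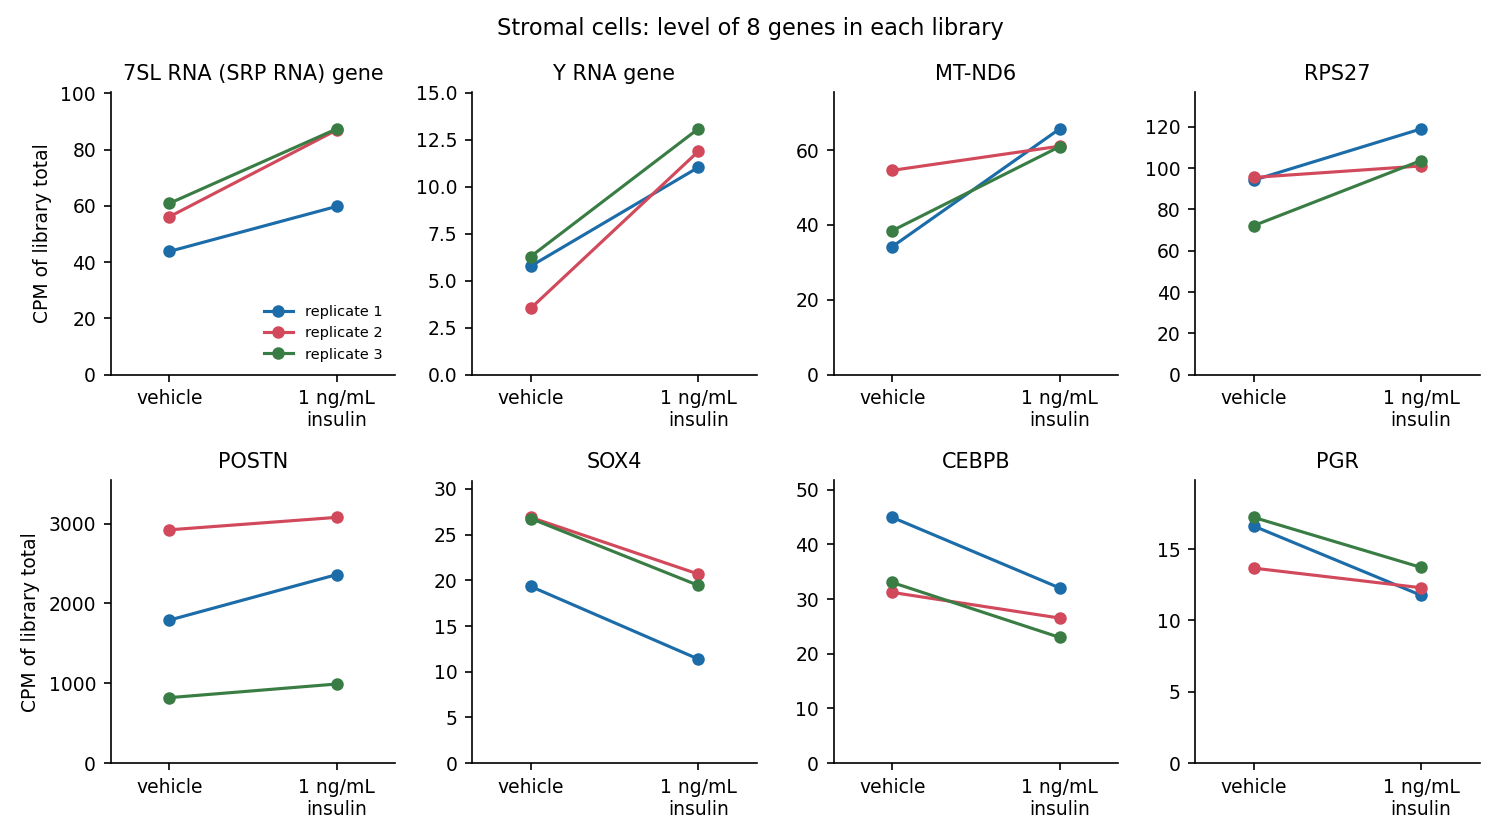
Level in CPM of 8 genes in the 6 stromal libraries, with vehicle on the left and 1 ng/mL insulin on the right of each panel, and lines that join libraries of the same replicate number. The 7SL and Y RNA genes, MT-ND6, RPS27 and POSTN are higher with insulin in all 3 pairs and SOX4, CEBPB and PGR lower; of these 8 genes the first 2 alone were called.

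Small nucleolar RNAs, which guide the chemical modification of ribosomal and spliceosomal RNA, had a median of 0.15 on the log2 scale over 71 tested genes, beside a median of -0.0043 over all genes. Of the 71 genes, 11 were higher and 0 were lower at the unadjusted threshold, where the background was 2.26% higher and 2.9% lower. Their medians in pairs 1, 2 and 3 were 0.15, 0.06 and 0.15. The U3 gene ENSBTAG00000028359, whose RNA takes part in the first cuts of the ribosomal RNA precursor, was at 15.1, 14.4 and 12.2 CPM with vehicle and at 19.2, 22.0 and 24.1 CPM with insulin. Its insulin libraries lay above all its vehicle libraries, as for 1.28% of all genes tested, and its log2 fold change was 0.66 (SE 0.114, adjusted p = 0.271). At 10 ng/mL in stromal cells the median over 82 tested small nucleolar RNAs was -0.05, with 1 higher and 1 lower, where the background was 1.7% higher and 1.09% lower. At 1 ng/mL in epithelial cells it was -0.14 over 78, with 1 higher and 1 lower, beside 1.43% and 1.52% of all genes. A long non-coding RNA of high abundance (ENSBTAG00000052369), also named after its values were seen, was at 10237, 10483 and 7314 CPM with vehicle and at 6733, 10069 and 5508 CPM with insulin, which gave -0.33 (SE 0.0924, adjusted p = 0.753). It was lower in all 3 pairs, as were 18.1% of all genes, and was called without replicate 2, with -0.47.

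The 13 proteins encoded by the mitochondrial genome are core subunits of the respiratory chain and of ATP synthase. Of their genes, 12 were higher with insulin at an unadjusted p under 0.05, beside 2.1% of protein-coding genes. All 13 had a log2 fold change above 0, as did 48.3% of all genes tested. Their median was 0.35, but the pairs differed. The medians over the 13 genes were 0.38 in pair 1, -0.11 in pair 2 and 0.66 in pair 3, and only MT-ND6 and MT-ND4L were higher in all pairs.

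**Figure D3:**
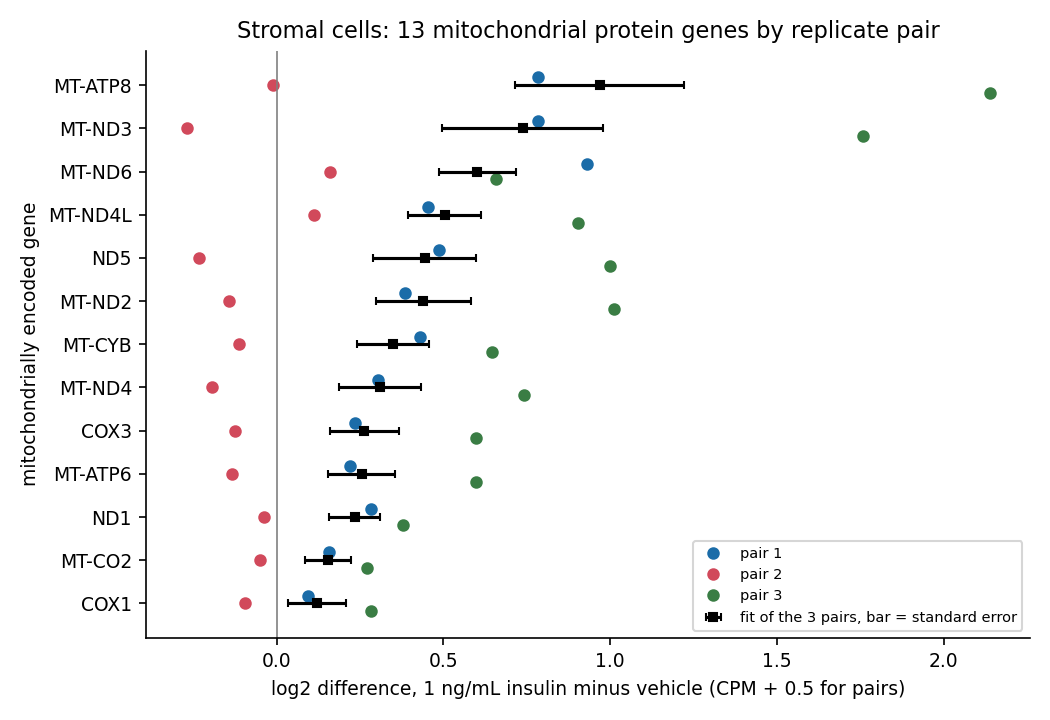
Log2 difference between 1 ng/mL insulin and vehicle for 13 mitochondrially encoded genes, in each replicate pair (coloured points, CPM with 0.5 added) and in the fit of the 3 pairs (black squares with standard errors). Pairs 1 and 3 lie above 0 for all 13 genes, and pair 2 lies below 0 for 11 of them.

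MT-ND6 (ENSBTAG00000043546), a complex I subunit read from the other strand of the mitochondrial genome than the rest, was at 34.2, 54.6 and 38.5 CPM with vehicle and at 65.7, 61.0 and 60.9 CPM with insulin. MT-ND4L, which overlaps MT-ND4, so that its reads cannot be assigned with certainty, was at 49.1, 61.4 and 37.3 CPM and at 67.4, 66.3 and 70.1 CPM. The insulin libraries of both genes lay above all vehicle libraries, as for 1.28% of all genes tested. The insulin libraries were close to each other, whereas the vehicle libraries were spread. Cytochrome b (MT-CYB) was at 666, 807 and 662 CPM with vehicle and at 897, 747 and 1036 CPM with insulin. Its groups overlapped, since replicate 2 was lower with insulin and the other pairs were higher. The log2 fold changes were 0.60 (SE 0.116, adjusted p = 0.344) for MT-ND6, 0.50 (SE 0.110, adjusted p = 0.459) for MT-ND4L and 0.35 (SE 0.107, adjusted p = 0.849) for MT-CYB. Without replicate 2 the median over the 13 genes was 0.58, and 11 of them were called. The share of all reads on the 13 genes was 1.91%, 2.03% and 1.42% with vehicle and 2.17%, 1.89% and 1.94% with insulin. That of the 2 mitochondrial ribosomal RNAs was 12.2%, 10.5% and 8.32% with vehicle and 13.9%, 9.19% and 9.87% with insulin. The ribosomal RNA share was higher with insulin in pairs 1 and 3 and lower in pair 2, as the messengers were, and its part in the result was not tested. Since these are bulk samples, fewer cells of a type and less RNA per cell cannot be told apart.

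Nuclear genes of the same machinery differed less. Of 71 tested nuclear-encoded subunits of oxidative phosphorylation, 4 were higher and 0 lower at the unadjusted threshold, with a median of 0.05. The medians in pairs 1, 2 and 3 were -0.055, 0.0036 and 0.075, and 10 genes were higher and 10 lower in all pairs. Over all protein-coding genes, 2.1% were higher and 2.93% lower. NDUFA6, a complex I subunit, was at 11.6, 10.9 and 7.15 CPM with vehicle and at 14.4, 12.0 and 12.5 CPM with insulin (log2 fold change 0.42, SE 0.139, adjusted p = 0.870). Its insulin libraries lay above all its vehicle libraries, as for 1.28% of all genes tested. Of 78 tested cytosolic ribosomal protein genes, 8 were higher and 1 was lower, with a median of 0.07 and 66 genes above 0. Their medians in pairs 1, 2 and 3 were -0.016, 0.013 and 0.105, so the list differed mainly in pair 3. RPS27, a protein of the small ribosomal subunit, was at 94.2, 95.5 and 72.2 CPM with vehicle and at 119, 101 and 104 CPM with insulin. The groups did not overlap, and the log2 fold change was 0.34 (SE 0.0748, adjusted p = 0.460). It was 0.24 without replicate 3 and 0.46 without replicate 2, where it was called. RPL9 was the lower one, at 20.9, 22.5 and 18.0 CPM with vehicle and at 18.5, 18.1 and 14.1 CPM with insulin (-0.25). RPS27A, whose product is a fusion of ubiquitin and a ribosomal protein, had 0.04 (SE 0.0579), and -0.04 without replicate 3.

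Matrix genes, the main products of stromal cells, gave small differences. Of 37 tested collagen and matrix genes, 4 were higher and 0 lower at the unadjusted threshold, beside 2.1% and 2.93% of protein-coding genes. In this list 32 genes were above 0 and 5 below, and the median was 0.07. Periostin (POSTN), a matrix protein that binds collagen, was at 1791, 2922 and 820 CPM in vehicle replicates 1, 2 and 3 and at 2361, 3078 and 991 CPM with insulin. It was higher in every pair, by less than the spread between replicates of either group (log2 fold change 0.28, SE 0.0741, adjusted p = 0.686). Decorin (DCN), a proteoglycan that binds collagen fibrils, was at 931, 1382 and 1000.0 CPM with vehicle and at 1333, 1242 and 1275 CPM with insulin. It was lower with insulin in pair 2 (fit of the 3 pairs 0.27, without replicate 2 0.47), and without replicate 2 both genes were called. The fibrillar collagens COL1A1 and COL3A1 had 0.10 and 0.14. Of 29 tested stromal markers, a list that shares genes with the matrix list, 2 were higher and 0 lower, with a median of 0.06. Among proteases and their inhibitors, PLAT, the tissue-type plasminogen activator, was at 419, 351 and 608 CPM and at 501, 398 and 602 CPM (0.17), and PLAU (-0.79) and MMP1 (-1.21) were highest in the vehicle library of replicate 2. Without replicate 2 PLAU was at -0.00095, and MMP1 did not pass the filter on low counts.

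In the list of insulin and IGF receptor signalling no gene passed the unadjusted threshold. Of its 35 tested genes, 0 were higher and 0 lower, beside 2.1% and 2.93% of protein-coding genes. Their log2 fold changes ran from -0.22 to 0.10 with a median of -0.02. INSR was at 27.4, 22.1 and 28.4 CPM with vehicle and at 22.6, 24.1 and 25.6 CPM with insulin. IGF1R was at 230.0, 184 and 216 CPM with vehicle and at 188, 199 and 196 CPM with insulin. The groups overlapped for both receptors, which were lower in pairs 1 and 3 and higher in pair 2, with a log2 fold change of -0.08 for each (SE 0.0879 and 0.0641). The substrate genes IRS1 and IRS2 had -0.03 and 0.10, and the kinase gene AKT1 had 0.03. Among the RAF, MEK and ERK kinases, ARAF was at 1769, 2707 and 2252 CPM with vehicle and at 2448, 2852 and 2618 CPM with insulin. ARAF was the 1 gene of the 14 tested in that list to pass the unadjusted threshold. It was higher in each pair with overlapping groups (0.28, SE 0.0809, adjusted p = 0.766), and without replicate 2 it was called, with 0.38.

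Genes that insulin is known to control were counted against the background of 2.1% higher and 2.93% lower protein-coding genes. Of 25 tested FOXO factors and targets, only FOXO3 passed the unadjusted threshold, at 29.9, 27.2 and 28.4 CPM with vehicle and 26.9, 21.5 and 25.2 CPM with insulin (-0.19, SE 0.0812). All its insulin libraries lay below all its vehicle libraries, as for 3.07% of all genes tested. Of 37 tested SREBP targets, 0 were higher and 5 lower (INSIG1, FDFT1, SREBF1, FASN and SCD), with a median of -0.04. FASN, which makes palmitate, was at 212, 237 and 196 CPM with vehicle and at 178, 201 and 187 CPM with insulin, a log2 fold change of -0.16 (SE 0.0534, adjusted p = 0.895). FASN and SCD were each more than 4-fold higher in epithelial than in stromal cells, and without replicate 2 their values were -0.12 and -0.05. Of 28 tested genes of glucose transport and glycolysis, 0 were higher and 2 lower. The glucose transporter gene SLC2A1 was at 21.6, 48.4 and 33.6 CPM with vehicle and at 21.0, 18.9 and 22.8 CPM with insulin (-0.66, or -0.28 without replicate 2), and its level was 25.1-fold higher in epithelial cells. The insulin-responsive transporter gene SLC2A4 was at 0 in 5 of the 6 libraries and at 0.0926 CPM in the other.

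IGFBP5, which binds insulin-like growth factors in the pericellular matrix, was the 1 gene of 12 tested IGF ligands and binding proteins at the unadjusted threshold. It was at 24.0, 94.2 and 9.64 CPM with vehicle and at 7.87, 40.2 and 11.9 CPM with insulin. Pairs 1 and 2 were lower and pair 3 was higher, so the log2 fold change of -0.97 (SE 0.206, adjusted p = 0.438) became -1.32 without replicate 3, where it was called, and -0.68 without replicate 2. Its level in epithelial cells was 1.28-fold that in stromal cells. Follistatin (FST), which binds activins, had the same pattern at 166, 97.1 and 18.4 CPM with vehicle and at 97.6, 49.4 and 20.3 CPM with insulin (-0.63, SE 0.129, adjusted p = 0.438). It too was called without replicate 3, with -0.83, and its level in epithelial cells was 3.50-fold the stromal one.

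Several regulatory genes were lower with insulin in all pairs, as were 18.1% of all genes tested. The transcription factor gene SOX4 was at 19.3, 26.9 and 26.8 CPM with vehicle and at 11.4, 20.7 and 19.4 CPM with insulin. Its log2 fold change was -0.49 (SE 0.0928, adjusted p = 0.344), and from -0.56 to -0.40 with 1 replicate left out. CEBPB, a factor needed for decidualisation of the stroma in mice, was at 45.0, 31.2 and 33.0 CPM with vehicle and at 32.0, 26.5 and 23.0 CPM with insulin (-0.39, SE 0.0784, adjusted p = 0.438). For both factors each pair was lower and the groups overlapped, and at 10 ng/mL their values were -0.01 and 0.27. PGR was at 16.6, 13.7 and 17.2 CPM with vehicle and at 11.8, 12.3 and 13.7 CPM with insulin, lower in 3 of 3 pairs (-0.30, or -0.37 without replicate 2). The list of 28 tested steroid receptors and endometrial regulators had a median of -0.04, with 1 gene higher (RBP4, 0.18) and PGR lower. SOX4 had 3.84-fold the stromal level in epithelial cells, and its value without replicate 2 was -0.56. Further genes lower in all pairs were the poliovirus receptor gene PVR (94.6 to 98.9 CPM with vehicle, 76.1 to 84.6 CPM with insulin, -0.23) and the histone methyltransferase gene SETD1B (29.4 to 34.3 CPM, 22.7 to 28.4 CPM, -0.30). In both, all insulin libraries lay below all vehicle libraries, as for 3.07% of all genes tested. Their levels in epithelial cells were 2.97-fold and 1.17-fold those in stromal cells. Desmin (DES), an intermediate filament of muscle cells, was at 658, 177 and 106 CPM with vehicle and at 409, 140 and 102 CPM with insulin (-0.36), and the membrane repair gene DYSF at 24.8, 1.72 and 3.58 CPM and at 12.7, 1.36 and 2.58 CPM (-0.73). Replicate 1 had far more of both than the other replicates in either group.

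The remaining higher genes of low unadjusted p were of varied function. They were picked for being higher in all pairs, as were 8.5% of all genes tested. The ubiquitin ligase gene RNF5 was at 12.2, 9.87 and 7.91 CPM with vehicle and at 14.5, 14.9 and 12.3 CPM with insulin (0.51, SE 0.122, adjusted p = 0.561). JMJD4, which encodes a hydroxylase of a translation release factor, was at 5.16, 4.25 and 3.90 CPM and at 8.06, 6.70 and 5.81 CPM (0.65). In both, each insulin library was above every vehicle library, as for 1.28% of all genes tested. At 10 ng/mL their values were 0.32 and 0.57. TRIQK was at 7.04 to 8.92 CPM with vehicle and 10.7 to 11.0 CPM with insulin, STARD3NL at 8.67 to 10.7 and 11.7 to 15.1 CPM, and TMEM108 at 0.437 to 0.905 and 1.11 to 2.37 CPM. The groups did not overlap in any of the 3, and the values were 0.52, 0.43 and 1.38. In OLR1, RPL36 and NTNG2 each pair was higher and the groups overlapped, with 0.24, 0.22 and 0.33. Dermatopontin (DPT), a small matrix protein, was at 0.700, 7.06 and 4.55 CPM with vehicle and at 3.06, 8.73 and 9.20 CPM with insulin (0.85, and 0.80 at 10 ng/mL). MST1, OCA2, ATP2A1 and HECW2, with 1.07, 1.06, 1.01 and 0.84, were higher in all pairs and were at or under 2.04 CPM in every library. None of these genes passed the adjustment.

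Cell cycle genes differed mainly in pair 1. Of 49 tested cell cycle genes, 0 were higher and 5 lower at the unadjusted threshold, beside 2.1% and 2.93% of protein-coding genes. In this list 44 genes had a log2 fold change below 0, and the median was -0.15. The medians were -0.51 in pair 1, -0.05 in pair 2 and 0.06 in pair 3. MKI67, a marker of cycling cells, was at 60.5, 16.9 and 33.5 CPM with vehicle and at 38.3, 13.8 and 36.6 CPM with insulin (-0.26, and -0.03 without replicate 1). The replication gene MCM3 was at 24.3, 15.8 and 23.3 CPM and at 16.3, 11.7 and 20.7 CPM, lower in each pair (-0.36, SE 0.0995, adjusted p = 0.753).

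**Figure D4:**
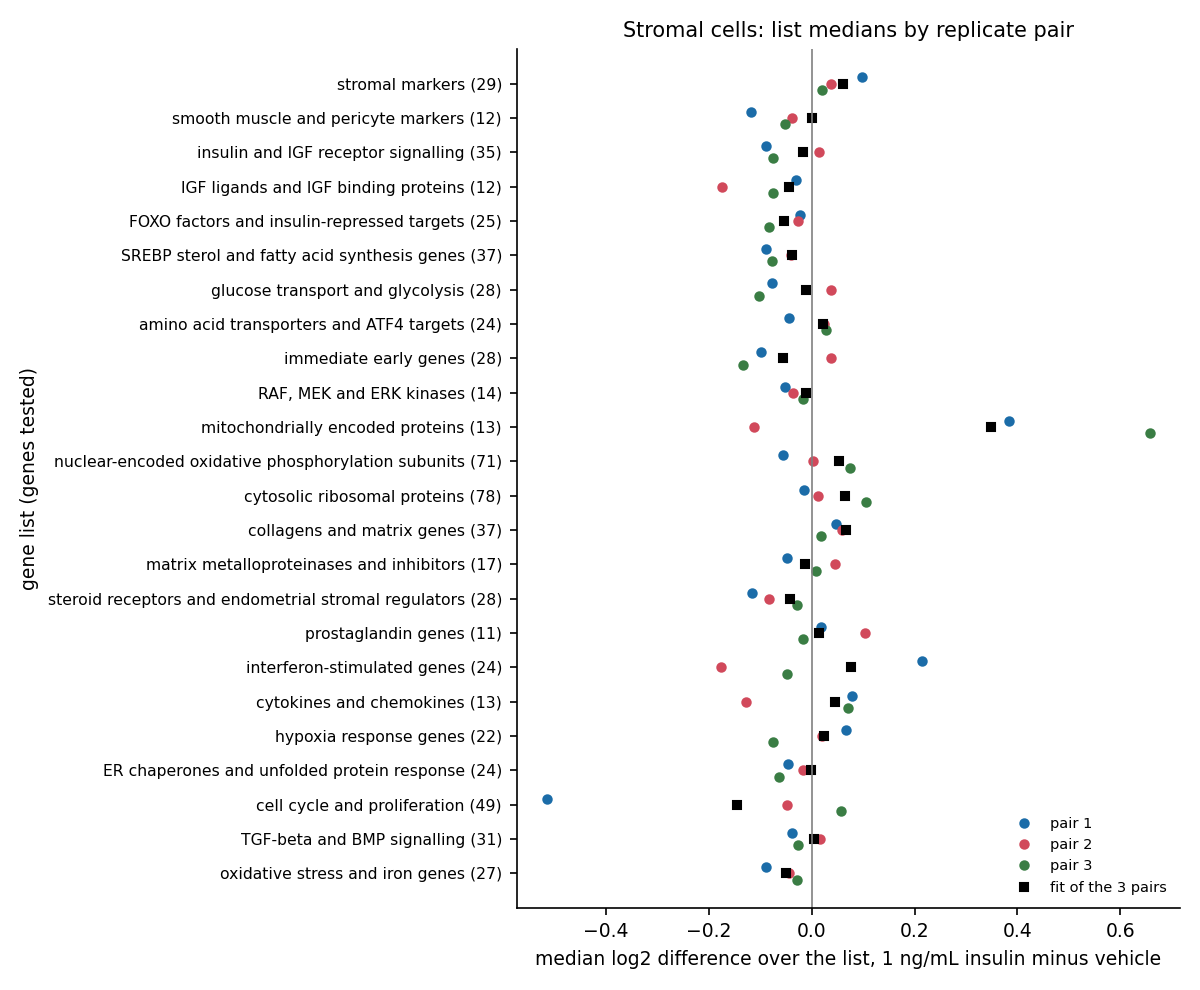
Median log2 difference between 1 ng/mL insulin and vehicle for 24 gene lists with at least 10 tested genes, in each replicate pair (coloured points) and in the fit of the 3 pairs (black squares). The mitochondrially encoded genes (0.38, -0.11 and 0.66) and the cell cycle genes (-0.51, -0.05 and 0.06) differ most between pairs.

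The remaining lists are given beside the background of 2.1% higher and 2.93% lower protein-coding genes at the unadjusted threshold. Counts of 2 or 3 lie above these shares in lists this short. There was 1 higher and 1 lower among 24 amino acid transporters and ATF4 targets, 0 and 1 among 28 immediate early genes, 0 and 0 among 11 prostaglandin genes, 1 and 0 among 24 chaperone and unfolded protein response genes, 0 and 3 among 27 oxidative stress and iron genes, and 2 and 2 among 31 genes of TGF-beta and BMP signalling. Cytokines had 1 higher and 1 lower of 13, hypoxia genes 0 and 2 of 22, proteases and inhibitors 1 and 2 of 17, and smooth muscle markers 0 and 2 of 12. Of the lower ones in these lists, IL6, EGLN3, DUSP5, GCLC, MMP1 and PLAU were highest in the vehicle library of replicate 2 and more than 4-fold higher in epithelial cells. Without replicate 2, IL6 went from -1.21 to -0.42, EGLN3 from -1.76 to -0.38, DUSP5 from -0.53 to -0.20 and GCLC from -0.37 to -0.10. Of 24 interferon-stimulated genes 1 was higher (OAS1Y, 1.24), at 1.66, 0.362 and 1.41 CPM with vehicle and 7.41, 0.678 and 0.726 CPM with insulin, which rested on replicate 1.

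Many of the lower genes were genes of epithelial cells. A gene was counted as epithelial when it was at least 4-fold higher in epithelial than in stromal cells at 10 ng/mL, which used none of the 6 libraries compared, although the 10 ng/mL library of replicate 1 held epithelial transcripts too. This applied to 4.75% of the 12228 protein-coding genes tested, to 115 of the 358 lower genes (32.1%) and to 1 of the 257 higher genes (0.389%). The endothelin receptor gene EDNRB had the lowest unadjusted p of all protein-coding genes. It was at 1.40, 30.1 and 2.71 CPM with vehicle and at 0.370, 0.678 and 1.78 CPM with insulin, and its log2 fold change of -3.26 became -0.94 without replicate 2. KRT19, HID1, AP1S3 and CXADR also had their highest level in the vehicle library of replicate 2, and HID1 was at 1.05, 8.06 and 0.975 CPM with vehicle and at 1.02, 0.424 and 0.323 CPM with insulin (-2.31, or -0.56 without replicate 2). Without replicate 2, KRT19 went from -3.29 to -0.26, AP1S3 from -1.93 to -0.58 and CXADR from -1.82 to -0.012. Not every epithelial gene among the lower ones was highest in the vehicle library of replicate 2. Of all 358 lower genes, 115 were highest there (32.1%, beside 12.2% of all protein-coding genes), and 36 of these were not epithelial. CNR1, the cannabinoid receptor gene, was highest in vehicle replicate 1. It was at 2.62, 1.27 and 0.867 CPM with vehicle and at 1.20, 0.0848 and 0.242 CPM with insulin (-1.65, or -1.23 without replicate 2). The insulin values of replicates 2 and 3 were at or under the limit that a count of 0 allows, so the size of this difference is uncertain. By contrast, F5, MAP7, ABCA1 and SLC12A2, each at least 8.66-fold higher in epithelial cells, were highest in the vehicle library of replicate 2. Their values were -1.13, -1.21, -1.11 and -0.24, and -0.74, -0.74, -0.55 and -0.17 without replicate 2. Epithelial genes had medians of -0.10, -0.36 and -0.01 in pairs 1, 2 and 3, and other genes of -0.06, 0.0010 and -0.02. Leaving out replicate 2 kept 152 of the 243 lower genes that were not epithelial at an unadjusted p under 0.05 with the same sign. That fit reuses pairs 1 and 3, which had helped to select these genes, so the count is no independent check of them.

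**Figure D5:**
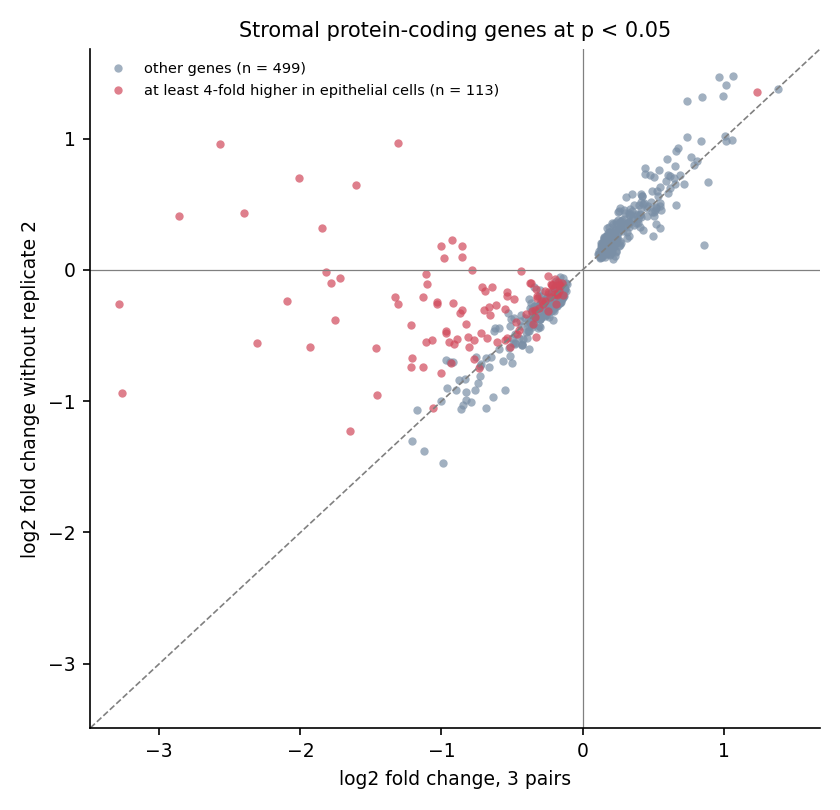
Log2 fold change in the fit of the 3 pairs (x axis) and without replicate 2 (y axis) for 612 protein-coding genes at an unadjusted p under 0.05, with 113 epithelial genes in red, 499 others in grey and the dashed line where both are equal. The sign turned for 12 epithelial genes and 0 others.

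With 1 replicate left out, each fit rests on 2 pairs, and the fit of the 3 pairs called 0 protein-coding genes. The calls that follow show how the result moves with 1 replicate and are no further results. The fit without replicate 2 called 26 protein-coding genes, of which 22 were higher and 0 were epithelial. Beside 11 mitochondrial genes, the higher ones were DCN, LUM, POSTN, RPS27, ARAF, TRPA1, S100A4, CRIP1, HSPB6, STRA6 and ENSBTAG00000050435, and the lower ones CEBPB, NSD2, LUZP2 and DYSF. The fit without replicate 3 called 93 protein-coding genes, of which 74 were lower, and 57 of the 74 were epithelial. The fit without replicate 1 called 4, which were MAL2, WFDC2, HID1 and MMP7, all lower and epithelial.

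Whether stromal cells differed from epithelial cells in their response to 1 ng/mL was tested as the difference between both log2 fold changes. Of 13976 genes, 92 differed (0.658%), 88 of them protein-coding (0.659%), and 90 of the 92 had a lower value in stromal cells and were epithelial. Only 13 of the 92 had passed the filter on low counts in the stromal fit. The others entered the test through the epithelial libraries, where they are high, so the counts of 92 and 90 do not stand as a result about stromal cells. In 89 of the 92 the vehicle library of replicate 2 was the highest of the 6 stromal libraries. The difference was -5.04 for KRT18, which was not tested in the stromal fit, and -3.55 for KRT19. Without replicate 2, 3 genes differed, none of them epithelial, with the 7SL copy ENSBTAG00000050180 (1.10), IFIT1 (1.21) and MT-ND6 (0.75) higher in stromal cells. Limited to 11822 genes that passed the filter in each cell type, 1 gene differed, EDNRB (-3.57). IFIT1, an interferon-induced RNA-binding protein, was at 117, 129 and 38.8 CPM with vehicle and at 143, 121 and 46.6 CPM with insulin in stromal cells (0.17), and its log2 fold change in epithelial cells was -0.53. In epithelial cells 18 of 35 tested interferon-stimulated genes were lower at the unadjusted threshold, beside 1.47% of protein-coding genes. For 6 of 35 the difference between cell types had an unadjusted p under 0.05, beside 6.69% of protein-coding genes, and 0 were called.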

How the data were processed

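Counts of 75-base single-end reads per gene were used as deposited. The authors prepared stranded total RNA libraries, used Cutadapt and fastq_quality_filter for trimming and Rsubread for alignment, kept uniquely mapped reads, and made the counts with featureCounts on Ensembl 96 genes. FastQC, SAMtools and DESeq2 are also named in the submitters' processing notes. The strand setting of the counting is not given in the sources used here. Tables of the authors' own comparisons, which hold fold changes and p-values, were not used.

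Here, edgeR 4.0.16 in R 4.3.3 (TMM, filterByExpr) fitted the 6 libraries with the replicate number as a block, as in the paired design of the study's methods, and its quasi-likelihood test was adjusted by Benjamini-Hochberg over all 12711 genes. Same-numbered libraries deviated together (r = 0.7003, 0.6027 and 0.64 across genes). The replicate number held 75.25% of the variance, the split by insulin 8.467% and the rest 16.28%. The share of the split by insulin also holds noise and was not tested against the rest. DESeq2 1.42.0 was an alternative. The steps were tested on simulated data. CPM was the count scaled to the library total. The difference between cell types was fitted on 12 libraries.

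Named genes were the 12 higher and 12 lower protein-coding genes by p with 1 direction in all pairs, the 6 with the largest difference each way, up to 4 per list at an unadjusted p under 0.05, and a few fixed genes. The comparison and the gene lists were chosen with earlier results of these data known. The genome build is not given in the sources used here, and sequences and coordinates were not used.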

Additional observations from a re-analysis of the deposited data

Results flagged for a closer look

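For 8 named genes, the response to 1 ng/mL insulin differed between stromal and epithelial cells by the test of the difference itself, at an adjusted p under 0.05 (quasi-likelihood test of edgeR). The stromal minus the epithelial log2 fold change was -5.04 for KRT18, -3.60 for EDNRB, -3.55 for KRT19, -2.57 for HID1, -2.09 for CXADR, -2.07 for AP1S3, -1.28 for MAP7 and -1.19 for F5. In each of them the vehicle library of replicate 2 was the highest of the 6 stromal libraries, and each was at least 12.3-fold higher in epithelial than in stromal cells at 10 ng/mL. KRT18 was not tested in the stromal fit, since it passed the filter on low counts through the epithelial libraries alone. Limited to genes past the filter in both cell types, EDNRB was called (-3.57) and the other 7 were not. Without replicate 2, none of the 8 was called for the difference. Groups of 3 samples were not searched for single outlying samples.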

How the results depend on the processing

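Without replicate 1, 2 or 3 in turn, 4 to 93 protein-coding genes and 7 to 103 genes of every type were called in stromal cells, 370 to 983 protein-coding genes had an unadjusted p under 0.05, and the difference between cell types called 2 to 153. Testing every gene with at least 1 count gave 132 (101 of the 108 lower ones epithelial), 156, 982 and 270. DESeq2 gave 72 at an unadjusted p under 0.05 and 25 for the difference. Without the replicate block these were 75 and 0, and 0 genes of every type were called; the paired fit was retained because each same-numbered pair correlated. All 9 stromal libraries together called 0 of every type. Without vehicle replicate 2 and with no replicate block, 0 of every type were called and 107 had an unadjusted p under 0.05. The difference between cell types limited to genes past the filter in both cell types, an alternative chosen after seeing the data, called 1.

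Without vehicle replicate 2 and with no block, the sign turned for SLC12A2 (0.29), CXADR (0.036), LAMB3 (0.28), IGFBP5 (0.32), MMP1 (0.27), PLAU (0.089) and IL6 (0.039). That setting keeps the insulin library of replicate 2 without its vehicle partner, so differences between replicates enter its values. SLC12A2 was lower with insulin in each pair, and at -0.17 in the paired fit without replicate 2. With 1 replicate left out at a time, LAMB3 was between -3.17 and 0.70 (without replicate 2) and RPS27A between -0.039 (without replicate 3) and 0.082. INSR was between -0.18 and 0.00011 and IGF1R between -0.18 and 0.0021 (both without replicate 1). Of the values of named genes under an alternative, 734 kept their direction and side of the threshold, 72 passed it newly, 6 lost it and 11 turned. The cause was not tested. A count under 3 reads is under the limit that 0 allows.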
